A study of Mus musculus with 12 samples.

Results

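Kainate and delta receptors are the smaller branches of the ionotropic glutamate receptor family, and 6 of their genes were followed here across the cortex of adult mice. The members were fixed by symbol as Grik1, Grik2, Grik3, Grik4 and Grik5, which encode the kainate subunits GluK1 to GluK5, and Grid1, which encodes the delta subunit GluD1. They are 6 of the 41388 genes in the deposited tables, and all 6 were among the 17441 genes abundant enough to be tested.

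Poly(A) RNA was sequenced from 12 mice on a C57Bl/6 background, 3 in each of 4 groups. Knock-in mice carry a constitutive exon 5 of Grin1 (Grin1-exon5+/+, here KI), and their wild types form the group KI_WT. Knock-out mice lack that exon (Grin1-exon5-/-, here KO), and their wild types form the group KO_WT. Grin1 encodes GluN1, the obligatory subunit of NMDA receptors, and exon 5 is an alternative cassette in the part that codes for its extracellular amino-terminal domain. The labels name no Cre driver and give the age as adult.

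Kainate receptors are tetramers. GluK1, GluK2 and GluK3 can form channels by themselves, whereas GluK4 and GluK5 bind kainate with high affinity but need a partner from the first set to form a working channel. They act on both sides of the synapse, where they tune transmitter release and carry slow postsynaptic currents. GluD1 has the fold of a glutamate receptor but is best known as a synaptic adhesion protein that binds secreted cerebellins, which in turn bind presynaptic neurexins.

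The channel pore is where these subunits are most alike, and it also holds the site at which the GluK1 and GluK2 transcripts are edited by ADAR2 from a glutamine to an arginine codon. The 63 bases that begin 8 codons before that site are shown for each gene, because they show the conserved codon and how far its surroundings differ between the genes. They are coding-strand sequences of GRCm38 transcripts from GENCODE vM21, with the codon in capitals.
Grik1: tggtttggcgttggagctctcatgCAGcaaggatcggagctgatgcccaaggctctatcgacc
Grik2: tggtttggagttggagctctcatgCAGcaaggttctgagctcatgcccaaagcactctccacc
Grik3: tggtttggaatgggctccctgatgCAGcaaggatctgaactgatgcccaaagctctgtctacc
Grik4: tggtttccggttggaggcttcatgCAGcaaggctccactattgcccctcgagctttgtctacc
Grik5: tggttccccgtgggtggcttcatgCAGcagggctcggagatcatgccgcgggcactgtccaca
Grid1: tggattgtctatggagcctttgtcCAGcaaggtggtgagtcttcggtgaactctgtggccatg

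The genome holds CAG, a glutamine codon, at this position in all 6 genes. Of the 63 bases, 55 were identical between Grik1 and Grik2 and 51 between Grik3 and either of them. Grik5 shared 44 with Grik4, and likewise 44 with Grik1 and with Grik2, so by base counts Grik5 was no nearer to Grik4 than to Grik1 or Grik2. For Grik4, the count with Grik5 was its highest. The other counts between Grik1, Grik2 or Grik3 and Grik4 or Grik5 were 39 or 40, and Grid1 shared 30 to 35 with the kainate genes. Over the whole protein, GluK1, GluK2 and GluK3 were 73.4% to 79.4% identical to one another, and GluK4 and GluK5 were 70.3% identical. A subunit of one set was 43.3% to 46.0% identical to a subunit of the other, and GluD1 was 30.2% to 32.2% identical to the kainate subunits. The deposited values are counts per gene, so they hold no information on editing at this codon.

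An exon boundary falls 4 bases after the codon in Grik1, Grik2, Grik3 and Grid1, and no boundary falls inside the stretch in Grik4 or Grik5. The Grik1 stretch lies on chromosome 16, minus strand, in exons 12 and 13 (chr16:87940538-87940568 and chr16:87936084-87936115), with the site at codon 621 of 934. That of Grik2 lies on chromosome 10, minus strand, in exons 13 and 14 (chr10:49244325-49244355 and chr10:49240765-49240796), at codon 621 of 908. That of Grik3 lies on chromosome 4, plus strand, in exons 12 and 13 (chr4:125691183-125691213 and chr4:125693962-125693993), at codon 623 of 919. The uninterrupted stretches are in exon 16 of Grik4 on chromosome 9 (chr9:42547587-42547649, minus strand, codon 606 of 956) and exon 15 of Grik5 on chromosome 7 (chr7:25022461-25022523, minus strand, codon 605 of 979). In Grid1 the stretch lies on chromosome 14, plus strand, in exons 11 and 12 (chr14:35450366-35450396 and chr14:35452261-35452292), at codon 618 of 1009.

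All libraries were of similar depth, with 31790970 to 36514024 counts and 21927 to 22809 genes detected. Each library comes from an animal with its own number. The numbers fall into a low range, with KO 1, KO_WT 2 and KO_WT 3, and a high range with the other 9, and the knock-in line has only the high range. Cortical excitatory markers were abundant in every library, with a summed level of 2754 to 4787 CPM over 6 markers, but the libraries differed in transcripts of neighbouring tissue. The choroid plexus marker Ttr was nearly absent from KI_WT 3, KO_WT 1 and KO_WT 3 (2.36 to 8.85 CPM), whereas the other 9 libraries held 513 to 1781 CPM of it. Olfactory bulb markers were highest in KI_WT 3, where Doc2g reached 71.9 CPM, then in KO_WT 3 and KO 1, where it reached 26.5 CPM in both. The score of 8 thalamic markers (mean centred log2 CPM), all detected, was 0.83, 0.48 and 0.34 in KI and -0.54, -0.73 and -0.18 in KI_WT, without overlap, and averaged 0.36 in KO and -0.43 in KO_WT, with overlap. Their summed level was 360 to 493 CPM in KI and 246 to 379 in KI_WT, and 306 to 515 CPM in KO and 219 to 366.4 in KO_WT. The KI_WT maximum is that of KI_WT 3, where Calb2 stood at 141 CPM, its highest value of all libraries. It stood at 20.5 CPM in KI_WT 1 and 18.2 in KI_WT 2, and the thalamic marker Prkcd was at 16.7 CPM in KI_WT 3. The female transcript Xist reached 570 CPM or more in KI 2, KI 3, KI_WT 1, KO 1 and KO 2 and stayed at 0.611 CPM or less in the other 7. By this transcript sex was unbalanced between groups. All KO_WT libraries lacked it while KO held both kinds, so sex and genotype are partly confounded in the knockout line. The mean level of Grin1 (± SD of 3 libraries) was 311 ± 20.8 CPM in KI, against 319 ± 18.3 CPM in KI_WT, and 307 ± 35.7 CPM in KO, against 333 ± 27.6 CPM in KO_WT. These gene totals cover all exons and 1307 bases shared with the antisense gene Grin1os, so they do not show exon 5.

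The level of a gene is given as RPKM, reads scaled by the library total and by the authors' gene length, wherever genes are set against each other. Grik5 was the most abundant member, at 38.0 ± 3.47 RPKM over the 12 libraries (SD), with a lowest value of 33.8 in KO_WT 2 and a highest of 45.1 in KO 2. Grik2 followed at 9.56 ± 1.67 RPKM, Grid1 at 9.17 ± 0.803, Grik3 at 8.22 ± 1.37, Grik1 at 4.30 ± 0.451 and Grik4 at 3.30 ± 0.966 RPKM. The order was tested between neighbours within libraries, with an exact 2-sided sign-flip permutation test on log2(RPKM + 0.1) and p-values adjusted over the 5 pairs. Grik5 was above Grik2 in 12 of 12 libraries (mean log2 difference 1.99, adjusted p = 0.00122, and 0.000488 unadjusted is the smallest this test can give). Grik3 was above Grik1 in 12 of 12 (0.91, adjusted p = 0.00122).

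The other neighbours lay closer together. Grik2 was above Grid1 in 8 of 12 libraries, and this pair could not be separated (mean log2 difference 0.05, permutation test, adjusted p = 0.604). Grid1 was above Grik3 in 9 of 12 (0.17, permutation test, adjusted p = 0.0409), and Grik1 was above Grik4 in 10 of 12 (0.42, adjusted p = 0.0195). Over the 9 libraries of the high range of animal numbers both calls were lost (permutation test, adjusted p = 0.107 and 0.0911), while Grik5 above Grik2 and Grik3 above Grik1 held. Part of the order rests on the gene lengths behind the RPKM values. The deposited length of Grik1 is 3137 bp, against 6721 bp of exons in GENCODE vM21, that of Grik2 is 8272 against 13246 bp, and that of Grik5 is 3836 against 5168 bp. With the GENCODE lengths the means became 28.2 RPKM for Grik5, 9.37 for Grid1, 8.22 for Grik3, 5.97 for Grik2, 3.30 for Grik4 and 2.01 for Grik1. Grid1 was then above Grik2 in 12 of 12 libraries and Grik4 above Grik1 in 11 of 12, so these 2 neighbouring pairs turned round, while Grik5 stayed first in 12 of 12. The mean of Grik2 also fell below that of Grik3, a pair that was not tested. Only the lengths were changed, and the reads were not counted again. If the deposited counts leave out the added exon bases, the longer lengths lower Grik1, Grik2 and Grik5 by construction. The order of Grik2 against Grid1 and Grik3, and of Grik1 against Grik4, is therefore not settled.

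**Figure D1:**
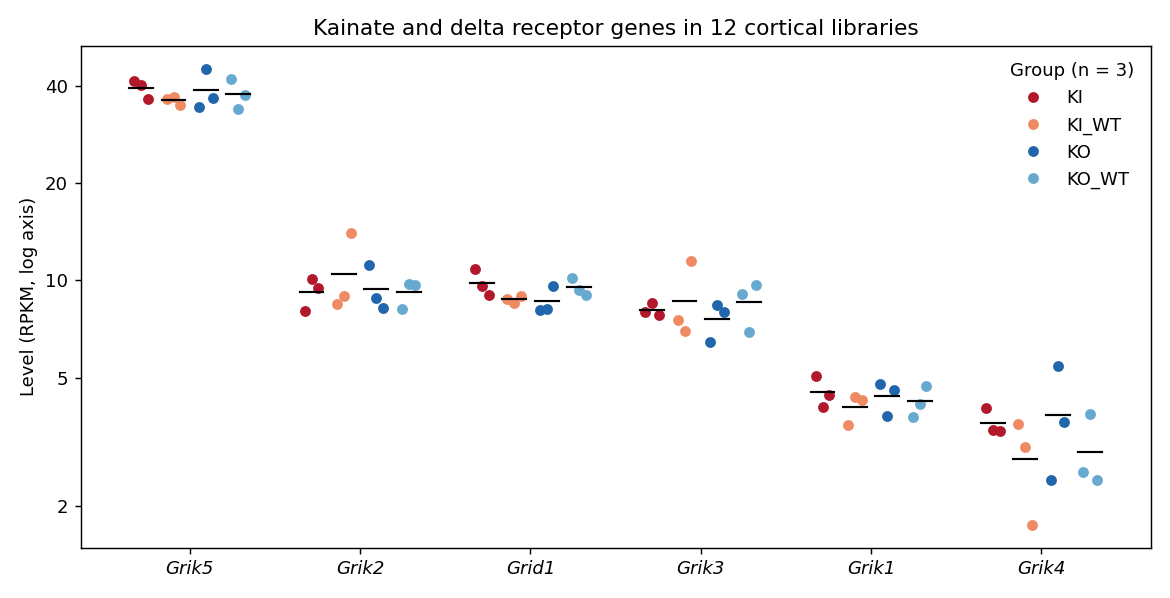
Level of each member in the 12 libraries, in RPKM on a log axis, with genes in the order of their mean. Each point is a library, the colour gives the group and the horizontal lines are group means (n = 3); Grik5 lies between 33.8 and 45.1 RPKM, above every other gene, and Grik4 has the widest spread, from 1.75 in KI_WT 3 to 5.45 in KO 2.

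Among kainate transcripts the high-affinity subunit Grik5 held most of the total. Its share of the summed RPKM of Grik1 to Grik5 averaged 60.7 ± 1.53% in KI, 58.3 ± 5.02% in KI_WT, 60.4 ± 2.498% in KO and 60.1 ± 3.36% in KO_WT (SD, n = 3 each). The share of Grik2 ran from 12.1% to 21.1% over the libraries, that of Grik3 from 10.9% to 17.3%, that of Grik1 from 5.30% to 8.10% and that of Grik4 from 2.65% to 7.61%. Grik4 and Grik5 together exceeded Grik1, Grik2 and Grik3 together in all 12 libraries. That ratio was 1.97 ± 0.163 in KI and 1.75 ± 0.452 in KI_WT, and 1.996 ± 0.384 in KO and 1.86 ± 0.232 in KO_WT. The group ranges overlapped in both lines, and the lowest and highest ratios were 1.23 in KI_WT 3 and 2.40 in KO 2. With the GENCODE lengths and the same counts Grik5 still held a mean of 59.1% of kainate transcripts (51.9% to 62.7%). The mean share of Grik1 was then 4.23%, and that of Grik3, at 17.2%, exceeded that of Grik2, at 12.6%.

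**Figure D2:**
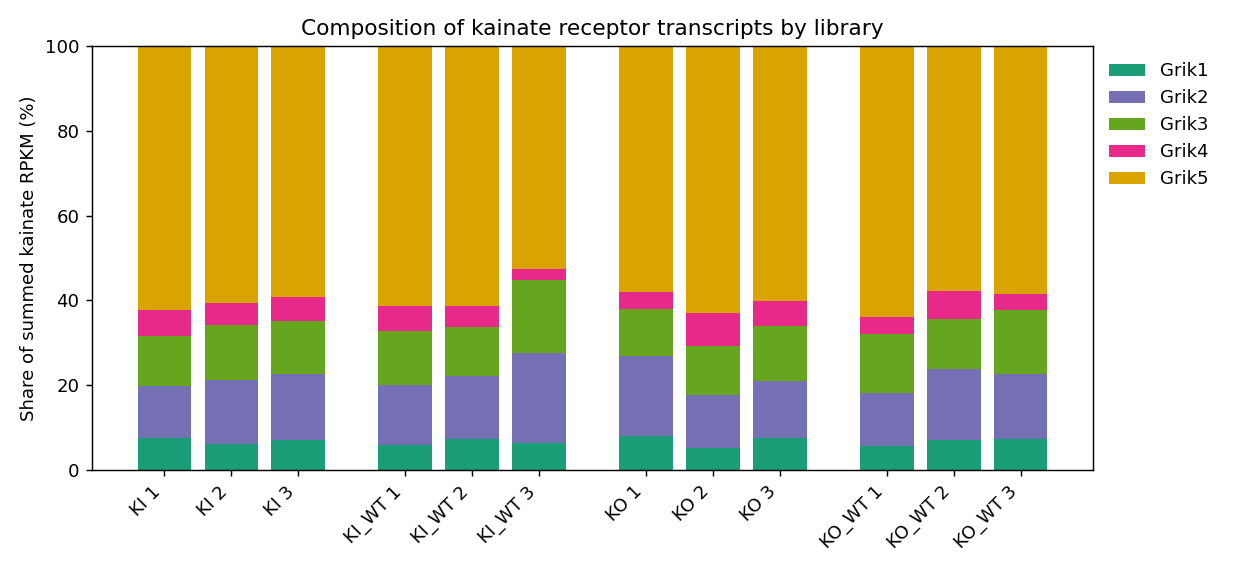
Share of each kainate subunit gene in the summed RPKM of Grik1 to Grik5, in percent, with 1 bar per library. Grik5 fills 52.5% to 64.0% of every bar; KI_WT 3 has the largest Grik2 and Grik3 shares (21.1% and 17.3%) and the smallest Grik4 share (2.65%).

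The first comparisons ask whether a constitutive exon 5, or its absence, changed these genes relative to the wild types of the same line. Changes were tested with edgeR's quasi-likelihood test on the counts, with Benjamini-Hochberg adjustment over all 17441 genes and a threshold of 0.05, and levels are TMM-scaled CPM, counts scaled by library size. None of the 6 members was called in KI against KI_WT, where 0% of all genes tested were called. None was called in KO against KO_WT, where 0.00573% of all genes (1 gene) were called. At an unadjusted p under 0.05 the members numbered 0 in both, beside 6.96% of all genes in KI against KI_WT and 7.22% in KO against KO_WT. Over all genes these shares are 1214 and 1260 genes. With a term for Y-linked expression in the edgeR fit they were 892 and 515 genes. DESeq2 and limma voom also called 0 members, here and in the 3 comparisons that follow. The median log2 fold change of the members was 0.09 in KI against KI_WT and -0.02 in KO against KO_WT, beside medians over all genes of -0.01 and 0.01.

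Of the channel-forming subunits, Grik1 had the steadiest level. It stood at 15.8, 12.04 and 13.9 CPM in KI and 11.5, 14.0 and 13.2 in KI_WT (log2 change 0.11 with an SE of 0.13, adjusted p = 0.890 in edgeR). It stood at 14.7, 11.6 and 14.5 CPM in KO and 12.4, 13.3 and 14.95 in KO_WT (0.01, SE 0.13, adjusted p = 0.995). The groups overlapped in both lines, and the highest library was 1.37 times the lowest.

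Grik2, whose product binds the auxiliary proteins Neto1 and Neto2, was set apart by a single wild type. It stood at 66.04, 78.5 and 78.4 CPM in KI and 71.7, 75.6 and 114 in KI_WT (log2 change -0.23 with an SE of 0.17, adjusted p = 0.803 in edgeR). The value of 114 CPM belongs to KI_WT 3, and without that library the log2 fold change was 0.02. With terms for the thalamus, olfactory bulb and choroid plexus scores in the fit it was -0.26. The thalamus score did not overlap between KI and KI_WT, so that term and the genotype can hardly be told apart in this line. In the knockout line Grik2 stood at 90.0, 71.3 and 68.4 CPM in KO and 70.4, 82.1 and 81.1 in KO_WT (-0.02, SE 0.17, adjusted p = 0.980). KO 1, another library with olfactory bulb transcripts, was the second highest of the 12.

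Grik3 encodes the subunit of lowest glutamate affinity among those that form channels alone, and it too was highest in KI_WT 3. It stood at 71.0, 72.0 and 70.1 CPM in KI and 69.4, 63.9 and 101.5 in KI_WT (log2 change -0.14 with an SE of 0.17, adjusted p = 0.891 in edgeR), and without KI_WT 3 the log2 fold change was 0.10. It stood at 56.4, 73.6 and 72.4 CPM in KO and 84.8, 63.3 and 87.5 in KO_WT (-0.22, SE 0.17, adjusted p = 0.752). The 3 highest of the 12 values were those of KI_WT 3, KO_WT 3 and KO_WT 1, the libraries nearly free of Ttr. Within the other 9 libraries the correlation of Grik3 with the choroid plexus score was 0.11, and no correlation is given over all 12, since they fall into 2 clusters in this score.

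Grik4, a high-affinity subunit known for its strong expression in hippocampal field CA3, varied most between animals. It stood at 23.8, 19.3 and 20.5 CPM in KI and 22.0, 18.6 and 10.3 in KI_WT (log2 fold change 0.32, 95% interval -0.35 to 0.99, edgeR adjusted p = 0.856). It stood at 14.1, 31.7 and 21.9 CPM in KO and 15.9, 23.6 and 14.6 in KO_WT (0.32, 95% interval -0.34 to 0.99, adjusted p = 0.793). The groups overlapped in both lines, and the highest library was 3.07 times the lowest. As each library was left out, the first log2 fold change lay between 0.07 (without KI_WT 3) and 0.55 (without KI_WT 1), and the second between 0.00 (without KO 2) and 0.57 (without KO 1). Within the high range of animal numbers the second was 0.76, still not called. With the regional terms in the fit they were 0.03 and -0.01, the first with the limit given for Grik2. The second has a limit too, since the choroid plexus score was 0.79, 1.08 and -0.006 in KO and -3.20, 0.78 and -2.32 in KO_WT. That term and the genotype are therefore partly confounded in the knockout line.

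Grik5, the common high-affinity partner of GluK2 in the brain, was close to level in all groups. It stood at 158, 146 and 140.0 CPM in KI and 144, 145 and 132 in KI_WT (log2 fold change 0.08, 95% interval -0.16 to 0.31, edgeR adjusted p = 0.908). It stood at 128, 169 and 142 CPM in KO and 167, 132 and 145 in KO_WT (-0.02, 95% interval -0.26 to 0.22, adjusted p = 0.977). The groups overlapped in both lines, and these intervals were narrower than those of Grik1, Grik2, Grik3 and Grik4.

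Grid1 was the member whose 2 lines lay furthest apart. It stood at 65.4, 55.1 and 55.0 CPM in KI and 54.9, 53.2 and 53.8 in KI_WT (log2 change 0.12 with an SE of 0.098, adjusted p = 0.835 in edgeR). All KI libraries lay above all KI_WT libraries, narrowly so for KI 3 (54.95 CPM) and KI_WT 1 (54.92 CPM), which made Grid1 the 1 member without overlap, beside 12.2% of all genes. It stood at 48.1, 48.6 and 58.9 CPM in KO and 64.7, 58.1 and 55.5 in KO_WT (-0.20, SE 0.098, 95% interval -0.41 to 0.02, adjusted p = 0.681). As each library was left out, the log2 fold change lay between 0.04 (without KI 1) and 0.17 (without KI 3) in the knock-in line and between -0.29 (without KO 3) and -0.13 (without KO_WT 1) in the knockout line. In the knockout line KO 3 lay above 2 KO_WT libraries, and 0 members were without overlap, beside 12.4% of all genes.

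**Figure D3:**
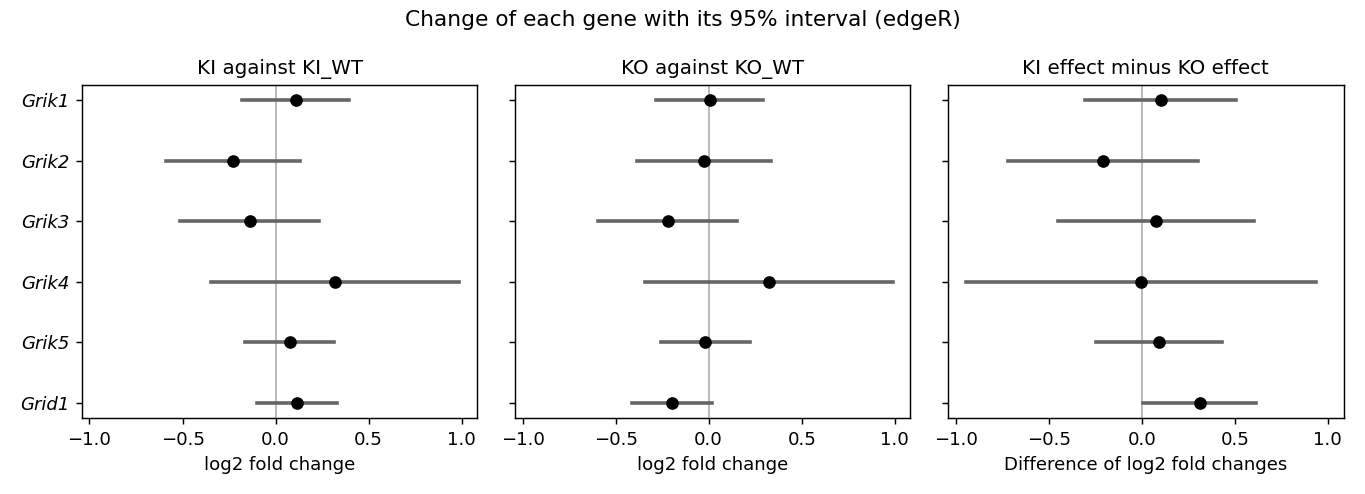
Log2 fold change of each member with its 95% interval from edgeR, for KI against KI_WT, KO against KO_WT and the difference between these changes (KI effect minus KO effect). All intervals in the first and second panels include 0; Grik4 has the widest, and the Grid1 interval in the third panel runs from 0.01 to 0.62.

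Whether the 2 lines responded differently was tested as the KI effect minus the KO effect. Grid1 had the only member difference with an unadjusted p under 0.05, at 0.31 on the log2 scale (SE 0.14, 95% interval 0.01 to 0.62), and edgeR's adjusted p was 0.918. That is 1 of 6 members at an unadjusted p under 0.05, beside 5.26% of all genes, and 0 members were called, beside 0.00573% of all genes (1 gene). The difference kept its sign under every alternative run, between 0.20 and 0.41, and its smallest adjusted p was 0.445. For Grik2 the difference was -0.21 (SE 0.23), and for Grik4 it was 0.00 with an interval of -0.95 to 0.94. The median over the members was 0.09, beside -0.01 over all genes.

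In KI against KO, which sets an exon that is always present against one that is always absent, 0 members were called, beside 0.00573% of all genes (1 gene), and 0 had an unadjusted p under 0.05, beside 5.43%. No member was without overlap, beside 10.2% of all genes. The largest member change was that of Grid1, whose log2 change was 0.17 (SE 0.098, adjusted p = 0.919 in edgeR), and the median was 0.02, beside 0.00 over all genes. KI and KO come from separate lines with separate wild types, so line and genotype cannot be told apart in this comparison.

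Between the wild types, KI_WT against KO_WT, 0 members were called, beside 0% of all genes, and 0 had an unadjusted p under 0.05, beside 1.96%. Grid1 was the 1 member without overlap, beside 7.31% of all genes. Its KI_WT libraries, at 53.2 to 54.9 CPM, all lay below its KO_WT libraries, at 55.5 to 64.7 CPM (log2 change -0.14 with an SE of 0.098, adjusted p = 0.9998 in edgeR). Grik2 was 0.16 higher in KI_WT on the log2 scale (SE 0.17), and -0.08 without KI_WT 3. The members' median was -0.08, beside 0.00 over all genes. The 4 comparisons of groups share libraries with one another, so their values are not independent.

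The 30 further genes of kainate and delta receptor function were all tested, and none was called in any of the 5 comparisons by edgeR. At an unadjusted p under 0.05 the list held 0 higher and 1 lower gene in KI against KI_WT, and 1 higher and 2 lower genes in KO against KO_WT. In KI against KO and between the wild types it held 0, and in the KI effect minus the KO effect 1, the sorting nexin Snx27. The list's median log2 fold change was -0.04 in KI against KI_WT and -0.05 in KO against KO_WT, and 3 and 5 of its 30 genes were without overlap, beside 12.2% and 12.4% of all genes. The shares at an unadjusted p under 0.05 over all genes were 6.96% and 7.22%. By role, the list covers the auxiliary subunits Neto1 and Neto2, secreted cerebellins and C1q-like proteins, neurexins, scaffolds, RNA-editing enzymes, SUMO and kinase modifiers, and signalling partners of GluD1.

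In the knock-in line the smallest p-values were those of Ppp1r12a and Grip2. Ppp1r12a, a myosin phosphatase subunit that binds the intracellular part of GluD1, stood at 74.8, 68.2 and 75.5 CPM in KI and 87.3, 79.1 and 91.3 in KI_WT (log2 change -0.24 with an SE of 0.073, adjusted p = 0.705 in edgeR). Its groups did not overlap. Grip2, a PDZ scaffold of glutamate receptors, stood at 16.2, 19.2 and 15.7 CPM in KI and 17.6, 17.8 and 33.7 in KI_WT (-0.44, SE 0.23, adjusted p = 0.733), where the value of 33.7 CPM is that of KI_WT 3.

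In the knockout line they were those of Prkca and Arhgef12. Prkca, a protein kinase C isoform and ligand of the kainate receptor scaffold PICK1, stood at 171, 157 and 225 CPM in KO and 241, 268 and 297 in KO_WT (log2 change -0.54 with an SE of 0.16, adjusted p = 0.678 in edgeR). Arhgef12, whose product binds GluD1, stood at 181, 251 and 269 CPM in KO and 299, 293 and 288 in KO_WT (-0.33, SE 0.13, adjusted p = 0.678). Neither pair of groups overlapped.

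Cbln1, a cerebellin that links GluD1 to neurexins, was chosen after its values were seen. It stood at 14.4, 15.1 and 10.6 CPM in KO and 6.14, 6.04 and 10.3 in KO_WT (log2 change 0.83 with an SE of 0.35, adjusted p = 0.678 in edgeR), without overlap, and at 12.5, 13.8 and 7.07 CPM in KI and 5.08, 9.48 and 14.4 in KI_WT (0.21, SE 0.35, adjusted p = 0.925). Neto1 had a log2 fold change of -0.06 in KI and -0.26 in KO, and Neto2 had -0.23 and -0.18, each against its wild types and with none called. Adar and Adarb1, the editing enzymes, had 0.11 and 0.21 in KI and -0.06 and 0.02 in KO, with none called.

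**Figure D4:**
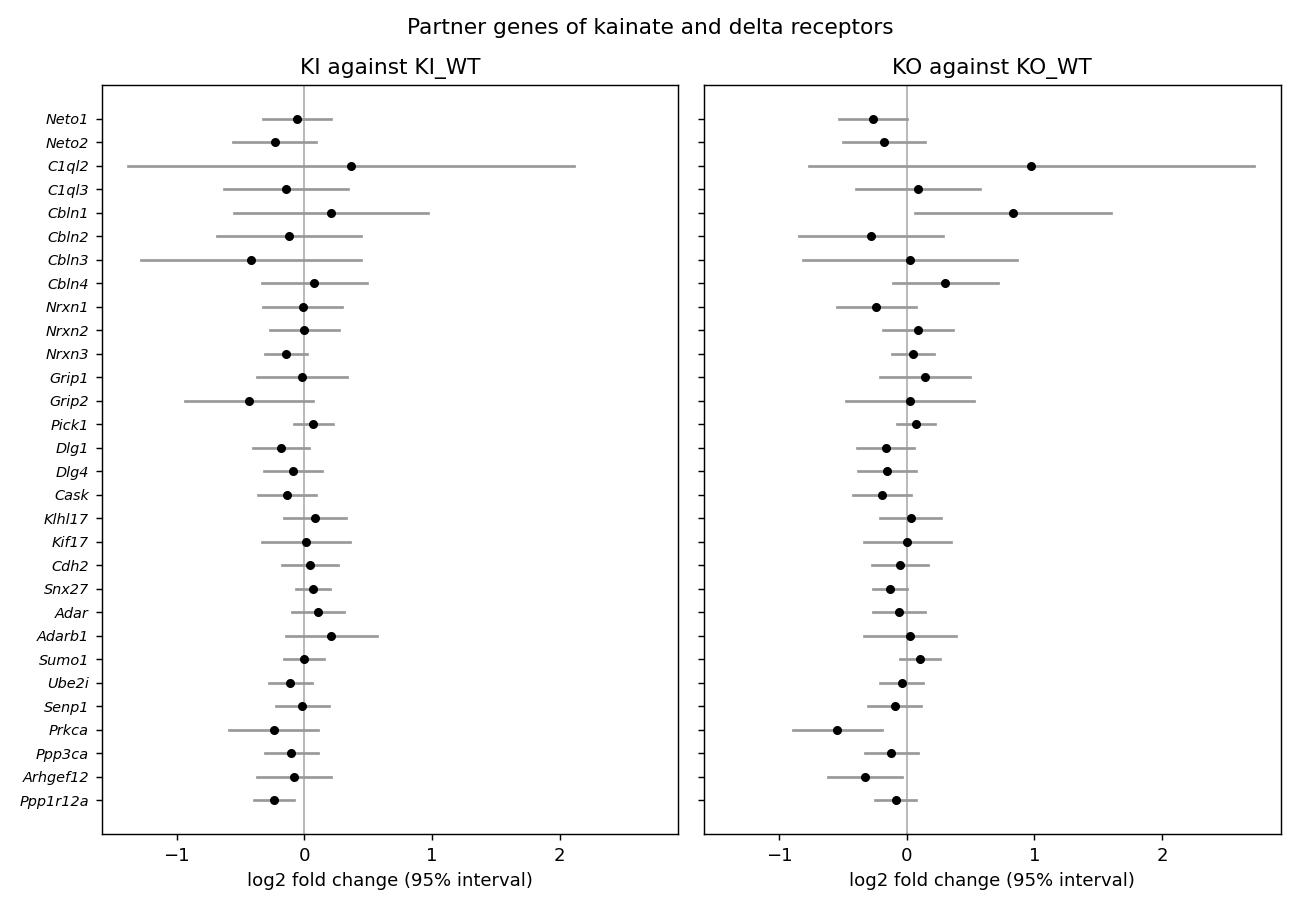
Log2 fold change and 95% interval from edgeR of the 30 partner genes, by role from auxiliary subunits at the top to GluD1 signalling at the bottom, in KI against KI_WT (left) and KO against KO_WT (right). None passed the adjusted threshold; Ppp1r12a on the left and Cbln1, Prkca and Arhgef12 on the right have intervals that leave out 0.

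The members were also compared across the 12 libraries regardless of group, with Pearson's r and Spearman's rank correlation on log2 CPM and 2-sided permutation p-values adjusted over the 15 pairs. None of the 15 pairs passed. Grik2 and Grik4 had the strongest relation, an inverse one (r = -0.76, permutation test, adjusted p = 0.0723; Spearman = -0.61, adjusted p = 0.295), and without KI_WT 3 and KO 1, the libraries farthest from the median of Grik2, r was -0.34. Grik2 and Grik5 were inverse as well (r = -0.68, permutation test, adjusted p = 0.103; Spearman = -0.68, adjusted p = 0.271; r = -0.60 without the same libraries). Within the 9 libraries of the high range these correlations were -0.80 and -0.64, and the lower range has too few libraries for one.

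Each member was then set against 12 lists of markers of cortical cell types and neighbouring tissue, a family of 72 relations. A list's score is the mean over its markers of log2 CPM, centred for each gene, and 5 of the 72 passed an adjusted p of 0.05, all at 0.0396 in a permutation test. One of these is the choroid plexus list with Grik3, described above. On log2(RPKM + 0.1) only 1 of the 72 passed, that of Grik2 with the olfactory bulb list (permutation test, adjusted p = 0.0403), but the correlations were of similar size. There r was 0.76 for Grik4 with hippocampus, -0.76 for Grik4 with striatum and 0.73 for Grid1 with oligodendrocyte precursors, at adjusted p-values of 0.0657, 0.0657 and 0.0778 in the permutation test.

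Grik2 was higher where olfactory bulb markers were higher (r = 0.78, permutation test, adjusted p = 0.0396; Spearman = 0.54, adjusted p = 0.531). Without KI_WT 3 and KO_WT 3 r was 0.62, and within the high range it was 0.91. All 6 markers were detected in every library, and their summed level ran from 18.5 to 65.3 CPM in KI, 11.7 to 325 in KI_WT, 9.83 to 121 in KO and 8.26 to 153 in KO_WT. Grik2 was not in step throughout, since KO_WT 2, with the lowest score, had 82.1 CPM and KO_WT 3, with the second highest, had 81.1.

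Grik4 was higher where hippocampal markers were higher (r = 0.76, permutation test, adjusted p = 0.0396; Spearman = 0.86, adjusted p = 0.0223). Without KI_WT 3 and KO_WT 1 r was 0.63, and within the high range it was 0.78. All 6 hippocampal markers were detected, with a sum of 239 to 347.3 CPM in KI, 227 to 372 in KI_WT, 213 to 448 in KO and 259 to 364 in KO_WT. With striatal markers Grik4 ran the other way (r = -0.80, permutation test, adjusted p = 0.0396; Spearman = -0.71, adjusted p = 0.298; r = -0.68 without KO 1 and KO 2, and -0.84 within the high range). The 7 striatal markers tested of 8 summed to 514 to 864 CPM in KI, 453 to 1058 in KI_WT, 411 to 1185 in KO and 672 to 959 in KO_WT. Group ranges of both lists overlapped in each line, as did those of Grik4. The lowest hippocampal scores, -1.32 and -1.28, were those of KI_WT 3 and KO_WT 1, both nearly free of Ttr. Grik4 was also inverse to the olfactory bulb list (r = -0.70, permutation test, adjusted p = 0.103). Within the 9 libraries that held Ttr its correlation with the choroid plexus score was 0.07. Whether any of these relations holds apart from the others was not tested.

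Grid1 was higher where markers of oligodendrocyte precursors were higher (r = 0.78, permutation test, adjusted p = 0.0396; Spearman = 0.86, adjusted p = 0.0223). Without KI_WT 3 and KO 1 r was 0.82, and within the high range it was 0.75. The 6 markers, all detected, summed to 319 to 340 CPM in KI and 236 to 309 in KI_WT, and to 251 to 320 CPM in KO and 324 to 353 in KO_WT, without overlap in either line. On the score used for the correlation, which gives each marker equal weight, the knock-in line did overlap, since KI 2 (0.03) lay below KI_WT 1 (0.06). The mean score was 0.10 in KI and -0.13 in KI_WT, and -0.15 in KO and 0.18 in KO_WT, and the mean of Grid1 was likewise higher in KI and lower in KO than in the wild types. In bulk tissue fewer cells of a type and less RNA per cell cannot be told apart, and the part of cell or tissue makeup in these levels was not tested. The fits with regional terms held only the thalamus, olfactory bulb and choroid plexus scores. They held none for hippocampus, striatum or oligodendrocyte precursors.

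**Figure D5:**
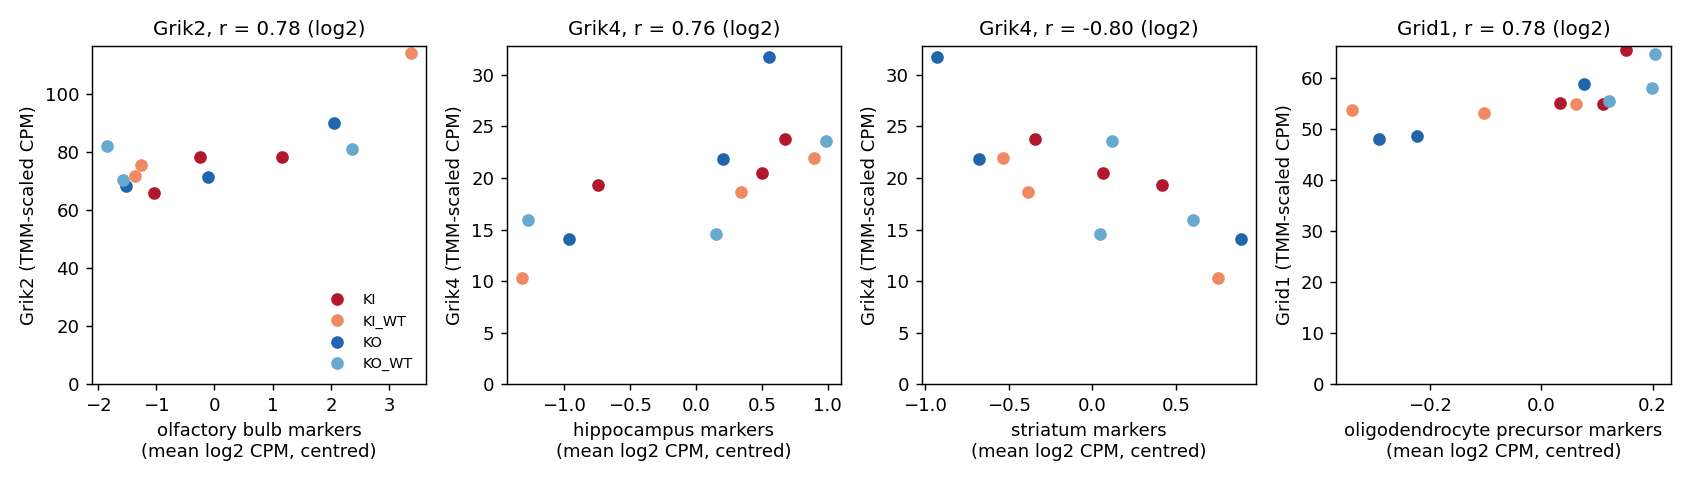
Level of a member (TMM-scaled CPM) against the score of a marker list (mean centred log2 CPM), with 1 point per library coloured by group, for Grik2 with olfactory bulb, Grik4 with hippocampus and with striatum, and Grid1 with oligodendrocyte precursors. The r above each panel is Pearson's, on log2 CPM; KI_WT 3 is the rightmost and highest point for Grik2, at 114 CPM, and the lowest for Grik4, at 10.3 CPM.

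Genes whose pattern over the 12 libraries was most like that of each member were ranked by Pearson's r on log2 CPM among all genes tested. For Grik1 they were Cd36 (r = 0.84, mean level 2.10 CPM), Stab2 (0.84, mean level 0.425 CPM) and Cwf19l1 (0.84). For Grik2 they were Ddx17 (r = 0.95), 2610008E11Rik (0.93) and Mctp1 (0.93). For Grik3 they were Fat1 (r = 0.92), Cd276 (0.92) and Zfp518b (0.90), and for Grik4 they were Slc26a4 (r = 0.95), Fads3 (0.95) and Khdrbs3 (0.94). For Grik5 they were Kat2a (r = 0.93), Cmtr1 (0.92) and Apbb1 (0.92), and for Grid1 they were Gle1 (r = 0.93), Fam20b (0.92) and Sema4d (0.89). These are descriptions over libraries that share dissection and depth differences, and no member was among the 3 of another. They are the highest of the correlations with 17441 genes over only 12 libraries, picked for their size, and were not tested against a background.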

How the data were processed

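Poly(A) libraries of 12 mouse cortices were analysed. The authors' processing named bcl2fastq 2.17, STAR 2.5.0c, Cufflinks 2.2.1 and the build GRCm38, per the submitters' processing notes; the counter, annotation and strand setting are not given in the sources used here, so reads of overlapping genes (59 exon bases of Grik4, 91 of Grid1) can be shared. The deposited table of raw counts and the deposited RPKM table hold 41388 genes, and 0 columns were left unassigned. Count divided by RPKM gave 1 length per gene, to within 0.0789% over 8292 genes.

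The counts were fitted with edgeR 4.0.16 in R 4.3.3 (TMM, filterByExpr by group, 1 mean per group, all 12 libraries, 8 residual degrees of freedom). This gave a biological coefficient of variation of 15.7%. Single CPM values are TMM-scaled, and correlations use log2 CPM with a prior count of 2. The fit was tested on simulated data. Alternatives were RLE size factors, 2 other count filters, DESeq2 1.42.0, limma 3.58.1 (voom, and log2 RPKM), only the groups compared, terms for animal number range, Y-linked expression or regional markers, the high number range alone and leaving out each library. Correlations and level tests used scipy 1.17.1 with 100000 permutations or all sign flips. Sequences were read from GENCODE vM21 with Biopython 1.88.

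The members, the partner list and the marker lists were chosen with earlier results of these data known. Partner genes are named by rule: any past the threshold, otherwise the 2 with the smallest p in each line. Snx27, Cbln1, Neto1, Neto2, Adar and Adarb1 are named outside this rule. Replicate numbers follow record order and pair nothing. Intervals and tests cover the spread between these animals.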

Additional observations from a re-analysis of the deposited data

How the results depend on the processing

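No member passed the adjusted threshold in any comparison under any alternative run, and the smallest adjusted p over all of them was 0.206, for Grid1 in KO against KO_WT. Of 744 alternative values of a member's log2 fold change, 653 kept their direction and 91 had the opposite sign. None of the 91 was called before or after, all belong to Grik1 to Grik5, and the cause was not tested. Grid1 kept its direction in every alternative of all 5 comparisons.

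Values of opposite sign follow by setting, on the log2 scale. The term for animal number range gave 0.0501 for Grik1 in KI_WT against KO_WT, and 0.0634 for Grik2, -0.00658 for Grik3 and -0.0738 for Grik5 in KI against KO. It also gave 0.0655 for Grik2 in KO against KO_WT and 0.16 for Grik4 in KI effect minus KO effect. The high range alone gave 0.0682 for Grik1 and 0.11 for Grik4 in KI_WT against KO_WT, and 0.0949 for Grik2, -0.0344 for Grik3 and -0.0696 for Grik5 in KI against KO. Limma voom gave -0.00934 for Grik1 and 0.0229 for Grik5 in KO against KO_WT, 0.0195 for Grik2 in KI effect minus KO effect, and -0.0204 for Grik2 and 0.0457 for Grik4 in KI_WT against KO_WT. Terms for regional markers gave -0.0266 for Grik1, -0.00691 for Grik4 and 0.14 for Grik5 in KO against KO_WT, -0.0495 for Grik3 and 0.0353 for Grik4 in KI effect minus KO effect, and 0.16 for Grik3 in KI_WT against KO_WT. Limma on log2(RPKM + 0.1) and on log2(RPKM + 1) gave 0.0222 and 0.0208 for Grik2 in KO against KO_WT, 0.0330 and 0.0323 for Grik5 in KO against KO_WT, and 0.0937 and 0.0532 for Grik4 in KI effect minus KO effect. For Grik3 in KI_WT against KO_WT, RLE size factors gave 0.00256, a filter of 1 CPM in 3 libraries 0.00299, DESeq2 0.00244 and a term for Y-linked expression 0.0375. For Grik4 in KI effect minus KO effect the Y-linked term gave 0.0568 and no count filter 0.00303.

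Leaving out KI_WT 3 and KO 1 together, an alternative chosen after seeing the data, gave -0.0498 for Grik1 and 0.0694 for Grik5 in KO against KO_WT, and 0.0182 for Grik2 and 0.0974 for Grik3 in KI against KI_WT. It gave 0.0974 for Grik2, -0.0320 for Grik3 and -0.0669 for Grik5 in KI against KO. In KI effect minus KO effect it gave 0.17 for Grik2 and -0.0305 for Grik5, and in KI_WT against KO_WT -0.0759 for Grik2 and 0.18 for Grik4.

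Leaving out each library in turn gave, in KI against KI_WT, -0.35 to 0.0185 for Grik2 and -0.27 to 0.0977 for Grik3. In KO against KO_WT it gave -0.0528 to 0.11 for Grik1, -0.16 to 0.0549 for Grik2 and -0.13 to 0.0807 for Grik5. In KI against KO it gave -0.0637 to 0.13 for Grik1, -0.11 to 0.0975 for Grik2, -0.0319 to 0.15 for Grik3, -0.33 to 0.24 for Grik4 and -0.0668 to 0.13 for Grik5. In KI_WT against KO_WT it gave -0.13 to 0.0151 for Grik1, -0.0760 to 0.30 for Grik2, -0.23 to 0.12 for Grik3, -0.30 to 0.18 for Grik4 and -0.15 to 0.0198 for Grik5. In KI effect minus KO effect it gave -0.33 to 0.0415 for Grik2, -0.0466 to 0.32 for Grik3, -0.26 to 0.33 for Grik4 and -0.00254 to 0.21 for Grik5.

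The members' median in KI effect minus KO effect was 0.17 with the animal number term, 0.18 without KI_WT 3 and KO 1, and -0.00707 to 0.18 as each library was left out. In KI_WT against KO_WT it was -0.22 with the animal number term, and in KI against KO it was 0.0106 to 0.13 as each library was left out. Of the 5 neighbouring pairs in the order of levels, 4 passed over 12 libraries and 2 over the 9 of the high range, where Grid1 with Grik3 and Grik1 with Grik4 were lost. Of the 72 relations with marker lists, 5 passed on CPM and 1 on log2(RPKM + 0.1). The GENCODE lengths, and the correlations within the 9 libraries with choroid plexus transcripts, were also added after seeing the data.

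With 3 animals a group, the 95% intervals reached 0.99 on the log2 scale for Grik4, and from -0.26 to 0.31 over both lines for Grik5. No paired analysis was possible because the labels give an animal number for each library but no litter or other pairing between groups.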
